A study of Mus musculus with 8 samples.

Results

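Enzymes that make or break down ceramide and its products were followed in quadriceps muscle of tumour-bearing mice. The 10 genes, Acer2, Acer3, Asah1, Smpd1, Sphk1, Sptlc2, Cers1, Cers2, Cers5 and Degs1, were taken by symbol from the 35494 gene symbols of the count table, and all 10 were found there. They were chosen by symbol and selected on the scMC38 and control counts of this same comparison, whose results were already known, so their fold changes and adjusted p-values describe the fit over all genes, and the number of them that passed a threshold supports nothing about the group of genes. The scMC38 group was 4 wild-type male C57BL/6 mice injected subcutaneously with MC38, a line of mouse colorectal tumour cells (1000000 cells each). Controls were 4 wild-type males of the same strain that got PBS alone by the same route. All were 8 weeks old at the start, muscle was taken at day 28, and the design text lists 4 animals a group, with no mention of pooling. The series title calls the wasting of this model mild, and the model rests on a single transplanted line.

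Ceramide is the central lipid of the sphingolipid pathway. It is built from serine and palmitoyl-CoA by serine palmitoyltransferase, ceramide synthases and dihydroceramide desaturase, or released from sphingomyelin by sphingomyelinases. Ceramidases split it into a fatty acid and sphingosine, and sphingosine kinases turn sphingosine into sphingosine 1-phosphate, a signalling lipid that leaves the cell and acts on its own receptors. In skeletal muscle, ceramide is best known as a lipid that dampens insulin signalling through Akt.

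Library totals ran from 52881659 to 61706235 counts in scMC38, against 50465092 to 62105453 counts in controls, so that 1 CPM, a count scaled to library size, stood for about 50 counts or more. Levels are given in CPM after scaling for library composition (TMM), and a gene was called at an edgeR adjusted p under 0.05. Of 14112 genes tested, 104 (0.737%) were called higher and 66 (0.468%) lower in scMC38, or 216 and 51 when libraries were scaled by total counts alone. The 10 muscle fibre markers, such as Acta1 and Ckm, were abundant throughout, with a summed level of 124664 to 173819 CPM in scMC38 and 127402 to 179521 CPM in controls. The lowest sum of all libraries was that of scMC38 3. Libraries scMC38 1 and 3 stood apart and also held markers of bone and of marrow progenitors. The 8 bone markers summed to 77.3 and 602 CPM in scMC38 1 and 3, to 11.3 and 6.48 CPM in scMC38 2 and 4, and to 6.66 to 22.9 CPM in controls. The 6 marrow progenitor markers summed to 46.9 and 416 CPM in scMC38 1 and 3, and to 0.151 and 0.355 CPM in scMC38 2 and 4, and to no more than 0.300 CPM in controls. The share of counts from mitochondrial genes was 14.4% to 18.9% in scMC38, against 24.3% and 29.7% in Control 1 and 2 and 16.3% and 16.8% in Control 3 and 4. Enzyme results that rest on these libraries are given with and without them. In bulk muscle, fewer cells of a type and less RNA per cell cannot be told apart.

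Acer2, the alkaline ceramidase of the Golgi, was the enzyme that rose. Its level was 9.40, 6.21, 16.4 and 15.3 CPM in scMC38 1 to 4, against 3.18, 3.34, 3.44 and 3.51 CPM in Control 1 to 4. All 4 tumour-bearing mice lay above all 4 controls, as in 6.82% of all tested genes, and the controls were almost level while the scMC38 mice ranged widely. The means were 11.8 ± 4.83 CPM in scMC38 and 3.37 ± 0.144 CPM in controls (SD, n = 4 each), and single scMC38 mice stood at 1.84 to 4.86 times the control mean. The log2 fold change by edgeR was 1.81 (SE 0.29, 95% interval 1.16 to 2.46, adjusted p = 0.0315), a 3.51-fold difference. Acer2 was 1 of 10 enzymes called, beside 1.20% of all tested genes. Among all genes it ranked 65 by p.

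The size of the Acer2 difference was steady when libraries were left out, but the call was not. Leaving out 1 library at a time gave log2 fold changes between 1.61 and 2.02. Acer2 stayed called without scMC38 2 (adjusted p = 0.0222), while the other seven fits gave adjusted p-values from 0.0527 without scMC38 3 to 0.113 without Control 1. With scMC38 1 and 3 both left out the value was 1.69 (SE 0.31, edgeR adjusted p = 0.0711). With Control 1 and 2 both left out it was 1.75 (SE 0.42, edgeR adjusted p = 0.283).

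Markers of red cells moved with the group as Acer2 did. All 10, among them the haemoglobin genes and Alas2, were higher in every scMC38 mouse than in every control, beside 6.82% of all tested genes. The 8 that could be tested were all called by edgeR, beside 1.20% of all tested genes. The sum of all 10 was 2635, 1671, 2895.5 and 1648 CPM in scMC38 1 to 4, against 586, 1089, 597 and 502 CPM in Control 1 to 4. Within scMC38, the red cell sum and Acer2 were both highest in scMC38 3, while scMC38 4 was second for Acer2 and lowest for red cells. Over the 8 libraries, which fall into the 2 groups, the log2 level of Acer2 had a Pearson r of 0.899 with the mean level of the red cell list. It was 0.819 with that of the neutrophil list, 0.59 with macrophage and 0.50 with bone. With the fibroblast, smooth muscle and Schwann cell lists it was -0.62, -0.57 and -0.53. Other enzymes also had a sizeable r with the red cell list, -0.84 for Smpd1, -0.81 for Cers1 and 0.77 for Sptlc2. The part of these cells in the Acer2 result was not tested.

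**Figure D1:**
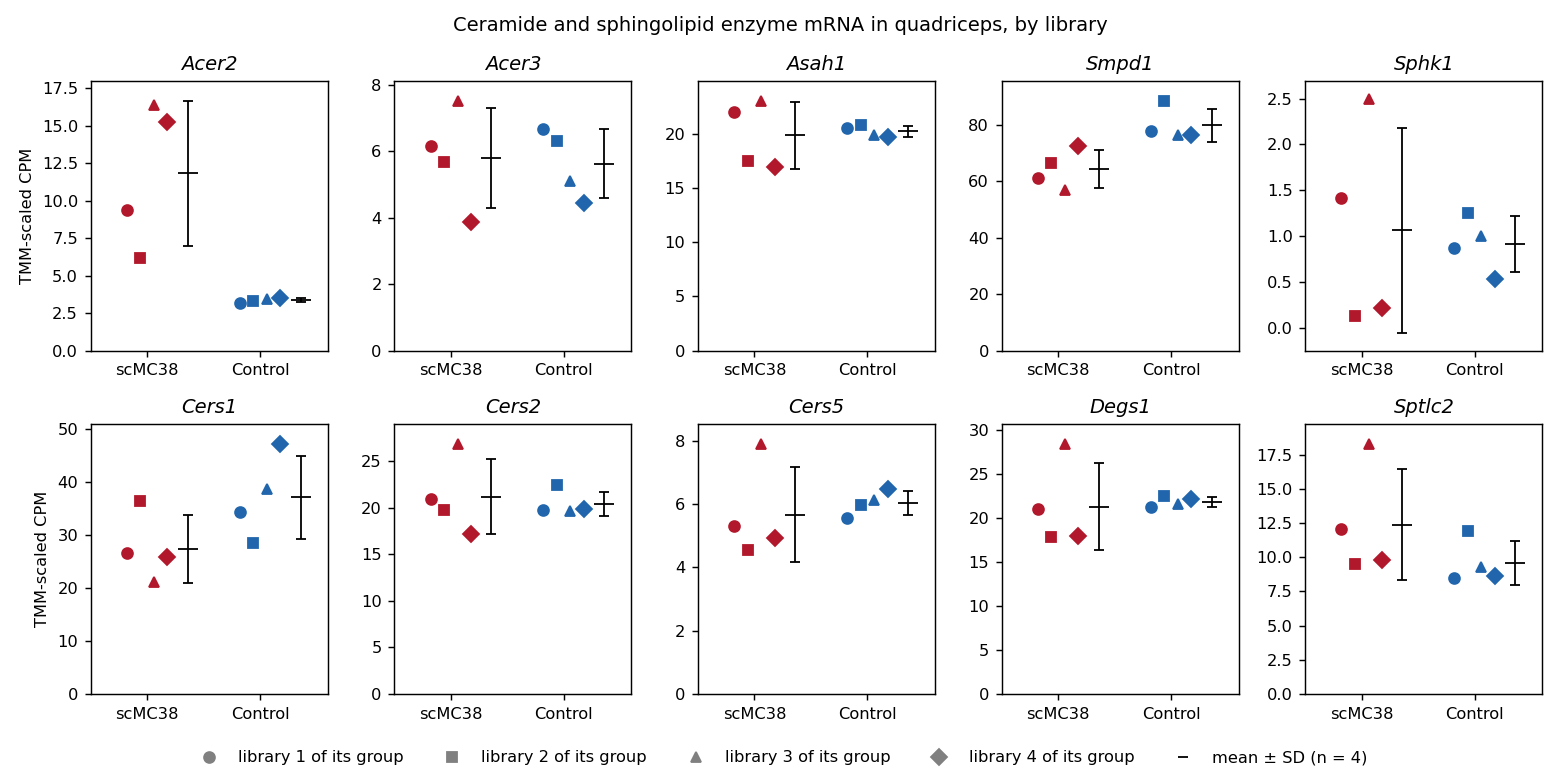
TMM-scaled CPM (vertical axis, a scale per gene) of the 10 enzymes in the 4 scMC38 and 4 control libraries, with a symbol per library number and the mean ± SD (n = 4) beside each group. Acer2 lies at 6.21 to 16.4 CPM in scMC38 and 3.18 to 3.51 CPM in controls, Smpd1 is the other gene whose groups do not overlap, and the library scMC38 3 is an extreme in every panel.

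Promoter sequence is shown for Acer2, the gene that rose, and for Smpd1, whose groups also lay apart. The windows hold 250 bases before and 50 after the start and come from RefSeq on GRCm38.p6, which is an earlier build than the GRCm39 named for the counts. A window was found for 9 of the 10 genes, all but Asah1. Acer2 is at chr4:86874164-86874463, plus strand, and Smpd1 at chr7:105554110-105554409, plus strand. Capitals mark matches to any of these motifs on either strand: the FOXO motif TGTTTAC, the E-box CACGTG, the GC box GGGCGG, the CCAAT box CCAAT and the TATA box TATAAA.
Acer2: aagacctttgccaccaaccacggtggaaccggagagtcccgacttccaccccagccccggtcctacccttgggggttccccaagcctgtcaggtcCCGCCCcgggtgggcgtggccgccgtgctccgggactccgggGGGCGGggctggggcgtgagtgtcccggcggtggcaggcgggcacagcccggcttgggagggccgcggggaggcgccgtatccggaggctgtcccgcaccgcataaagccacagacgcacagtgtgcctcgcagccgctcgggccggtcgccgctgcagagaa
Smpd1: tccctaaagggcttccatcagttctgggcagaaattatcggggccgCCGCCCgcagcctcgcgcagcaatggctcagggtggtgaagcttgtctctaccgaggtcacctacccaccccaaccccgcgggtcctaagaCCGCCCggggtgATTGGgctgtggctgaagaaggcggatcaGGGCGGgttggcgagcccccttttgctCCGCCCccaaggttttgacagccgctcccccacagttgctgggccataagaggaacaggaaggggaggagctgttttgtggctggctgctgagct
The Acer2 window had 2 GC boxes and the Smpd1 window 4 GC boxes and 1 CCAAT box, with no overlap between matches. Neither held the FOXO motif, the E-box or the TATA box. Among all 32851 windows, 35.7% held a GC box, 37.4% a CCAAT box, 13.6% a TATA box, 7.15% the E-box and 3.65% the FOXO motif. The Acer2 window was 73.0% G and C and the Smpd1 window 63.0%.

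The other ceramidases were not called. Acer3, the alkaline ceramidase that prefers unsaturated ceramides, was at 6.16, 5.68, 7.52 and 3.86 CPM in scMC38 1 to 4, against 6.66, 6.31, 5.10 and 4.46 CPM in Control 1 to 4. The groups overlapped fully (log2 fold change 0.04, SE 0.22, 95% interval -0.45 to 0.53, edgeR adjusted p = 0.930). Asah1, the acid ceramidase of the lysosome, was at 22.0, 17.5, 23.0 and 16.9 CPM in scMC38 1 to 4, against 20.5, 20.8, 19.9 and 19.7 CPM in Control 1 to 4. Controls differed little from each other, while scMC38 1 and 3 lay above them all and scMC38 2 and 4 below them all (log2 fold change -0.02, SE 0.11, 95% interval -0.27 to 0.22, edgeR adjusted p = 0.923).

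Smpd1 encodes acid sphingomyelinase, which releases ceramide from sphingomyelin in lysosomes. Its level was 61.2, 66.5, 56.9 and 72.4 CPM in scMC38 1 to 4, against 77.6, 88.3, 76.4 and 76.4 CPM in Control 1 to 4. Every scMC38 mouse lay below every control, a pattern that 6.45% of all tested genes showed in this direction and 13.3% in either. The means were 64.2 ± 6.67 CPM in scMC38 and 79.7 ± 5.80 CPM in controls (SD, n = 4 each). The log2 fold change was -0.31 (SE 0.09, 95% interval -0.52 to -0.10) and did not pass by edgeR (adjusted p = 0.123). DESeq2 called it (adjusted p = 0.0441), and with that tool 10.1% of all genes were called. Without scMC38 1 and 3 together the log2 fold change was -0.18 (SE 0.09, edgeR adjusted p = 0.361).

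Sphk1, the kinase that makes sphingosine 1-phosphate, was a gene of low level whose value depended on the library. It was at 1.42, 0.132, 2.49 and 0.217 CPM in scMC38 1 to 4, against 0.871, 1.25, 1.00 and 0.528 CPM in Control 1 to 4. The estimated counts behind these were 7 to 175 in scMC38 and 29.0 to 68 in controls. The 2 libraries with bone and marrow mRNA lay above all controls and the other two below all controls. Over all libraries the log2 fold change was 0.23 (SE 0.80, 95% interval -1.59 to 2.05, edgeR adjusted p = 0.894). Without scMC38 1 and 3 together it was -2.35 (SE 0.48, edgeR adjusted p = 0.0798), and without scMC38 3 alone it was -0.62 (SE 0.75, edgeR adjusted p = 0.676). The part of bone and marrow cells in the Sphk1 level was not tested.

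Ceramide synthases attach a fatty acid of a given length to the sphingoid base. Cers1 uses stearoyl-CoA and is the synthase most associated with muscle fibres and neurons. It was at 26.6, 36.4, 21.1 and 25.8 CPM in scMC38 1 to 4, against 34.3, 28.5, 38.7 and 47.2 CPM in Control 1 to 4. Of the scMC38 mice, 1, 3 and 4 lay below every control, and scMC38 2 lay within the control range. The means were 27.4 ± 6.43 CPM in scMC38 and 37.2 ± 7.86 CPM in controls (SD, n = 4 each), with a log2 fold change of -0.44 (SE 0.19, 95% interval -0.88 to 0.0035, edgeR adjusted p = 0.241). Leaving out scMC38 2 gave -0.60 and leaving out both scMC38 1 and 3 gave -0.24. The fit that dropped Control 1 and 2 gave -0.66, and none of these was called by edgeR.

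Cers1 shares a transcript with the growth factor gene Gdf1, so reads may be divided between them. Gdf1 was at 2.70, 2.38, 0 and 0 CPM in scMC38 1 to 4, against 0, 0, 1.32 and 1.00 CPM in Control 1 to 4, at most 9.22% of the sum of both genes. With the counts of the pair added together, an alternative chosen after seeing the data, the log2 fold change was -0.39 (SE 0.21, edgeR adjusted p = 0.315).

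Cers2, the synthase for very long fatty acids, was at 21.0, 19.8, 26.9 and 17.2 CPM in scMC38 1 to 4, against 19.7, 22.4, 19.7 and 19.9 CPM in Control 1 to 4. Its groups overlapped (log2 fold change 0.06, SE 0.13, 95% interval -0.24 to 0.35, edgeR adjusted p = 0.833). Cers5, which prefers palmitoyl-CoA, was at 5.31, 4.54, 7.89 and 4.92 CPM in scMC38 1 to 4, against 5.56, 5.98, 6.12 and 6.46 CPM in Control 1 to 4. In Cers5, scMC38 1, 2 and 4 lay below every control and scMC38 3 above every one (log2 fold change -0.09, SE 0.18, 95% interval -0.49 to 0.32, edgeR adjusted p = 0.804).

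The first and last steps of ceramide synthesis were read by Sptlc2 and Degs1. Sptlc2, a catalytic subunit of serine palmitoyltransferase, was at 12.1, 9.48, 18.3 and 9.77 CPM in scMC38 1 to 4, against 8.52, 11.9, 9.26 and 8.67 CPM in Control 1 to 4. Its log2 fold change was 0.37 (SE 0.22, 95% interval -0.13 to 0.87, edgeR adjusted p = 0.359), and it stood at 0.12 with scMC38 3 left out and at 0.027 when scMC38 1 was dropped as well. Degs1, the desaturase that turns dihydroceramide into ceramide, was at 21.0, 17.8, 28.4 and 17.9 CPM in scMC38 1 to 4, against 21.2, 22.5, 21.6 and 22.1 CPM in Control 1 to 4. Here scMC38 3 lay above every control and the other three below every control, so that the log2 fold change was -0.04 (SE 0.14, 95% interval -0.37 to 0.29, edgeR adjusted p = 0.905).

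**Figure D2:**
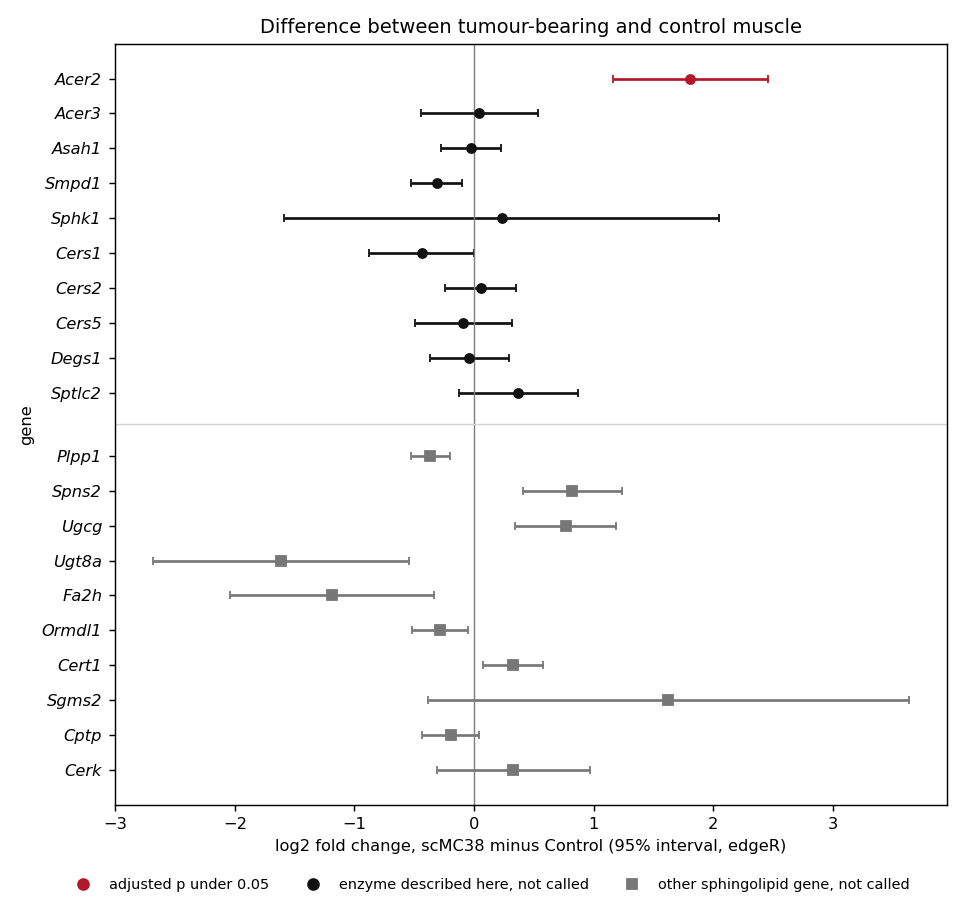
Log2 fold change, scMC38 minus Control, by edgeR with its 95% interval (horizontal axis) for the 10 enzymes (circles) and 10 other sphingolipid genes (squares), with red for an adjusted p under 0.05. Acer2 at 1.81 is the called gene, the intervals of Smpd1, Plpp1, Spns2, Ugcg, Ugt8a, Fa2h, Ormdl1 and Cert1 also lie on 1 side of 0 without an adjusted call, and Sphk1 has the widest interval of the 10 enzymes.

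The library scMC38 3 set the extreme value of all 10 enzymes. It was the highest of the 8 libraries for Acer2, Acer3, Asah1, Cers2, Cers5, Degs1, Sptlc2 and Sphk1, beside 22.7% of all tested genes, and the lowest for Cers1 and Smpd1, beside 17.9%. It was highest or lowest in 10 of 10 enzymes, beside 40.6% of all tested genes. With total-count scaling it was highest for the same 8 enzymes, beside 40.3% of all genes, and lowest for 1. The enzymes share these libraries, so they are not separate observations of the pattern. Muscle fibre markers had their lowest mean log2 level in scMC38 3, at -0.32, against -0.11 to 0.20 in controls. The part of this in the enzyme levels was not tested.

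Away from scMC38 1 and 3, several enzymes lay below the controls. In scMC38 2 and 4, Asah1, Cers5, Degs1, Smpd1 and Sphk1 were below all 4 controls, 5 of 10 enzymes beside 16.2% of all tested genes, and the same 5 under each of the other scalings. Fibroblast markers were low in the same libraries, with a mean log2 level of -1.01 and -1.54 in scMC38 2 and 4, against -0.25 to 0.24 in controls, and the part of this in the enzyme levels was not tested. Acer2 was above all controls in both of these mice, as were 14.7% of all tested genes. In the edgeR fit without scMC38 1 and 3, no enzyme was called (0.445% of all genes were), and 5 of 10 had an unadjusted p under 0.05, beside 18.8% of all genes. These were Acer2, which was higher, and Asah1, Cers5, Degs1 and Sphk1, which were lower, while Smpd1 was not among them. In that fit the log2 fold change was -0.27 (SE 0.08, adjusted p = 0.145) for Degs1, -0.21 (SE 0.08, adjusted p = 0.223) for Asah1 and -0.33 (SE 0.12, adjusted p = 0.229) for Cers5.

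Spread between mice was larger in scMC38 than in controls for all 10 enzymes, beside 57.4% of all tested genes. The library scMC38 3 was an extreme for all 10, so this count and that pattern are not separate observations. The coefficient of variation was 40.9% in scMC38 and 4.27% in controls for Acer2, and 23.3% and 2.60% for Degs1 in the same order. For Cers1 it was 23.4% in scMC38 and 21.1% in controls, and for Smpd1 it was 10.4% in scMC38 and 7.28% in controls.

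**Figure D3:**
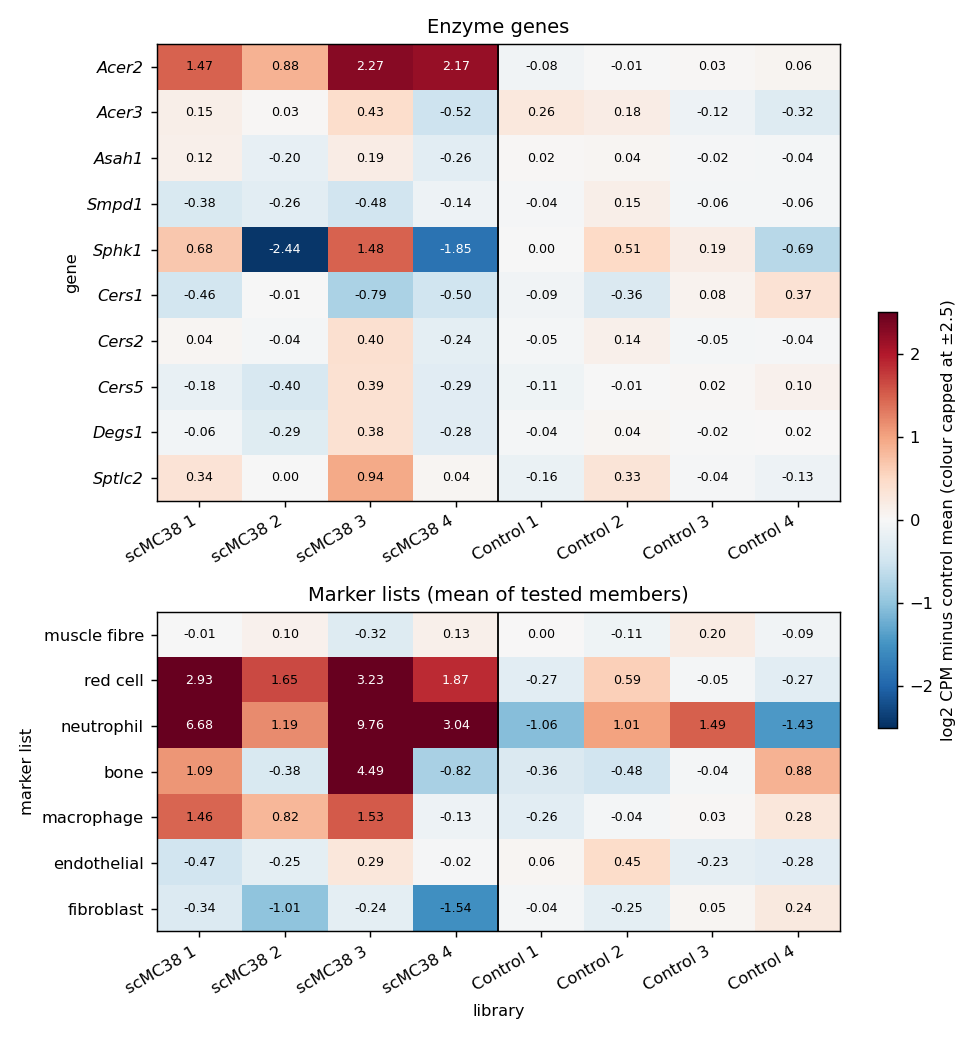
Log2 CPM relative to the control mean for each enzyme (upper panel) and the mean of each marker list (lower panel) in every library (columns), with colour capped at 2.5 on either side. Acer2 is 0.88 to 2.27 above the control mean in the 4 scMC38 libraries. Sphk1 is 0.68 and 1.48 above it in scMC38 1 and 3 but at -2.44 and -1.85 in scMC38 2 and 4. The bone list, here the mean of the 4 of its 8 genes that were tested, is 1.09 and 4.49 in scMC38 1 and 3. In controls it is -0.48 to 0.88, with Control 4 the highest.

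Other cell types that a muscle sample holds were checked by the same sums. The 10 neutrophil markers summed to 465, 11.9, 4200 and 36.5 CPM in scMC38 1 to 4, against 1.17 to 8.90 CPM in controls. The 10 macrophage markers summed to 138 to 586 CPM in scMC38 and 125 to 174 CPM in controls. The 10 endothelial markers ran from 344 to 587 CPM in scMC38 and from 406 to 699 CPM in controls. The 10 fibroblast markers summed to 1252, 755, 3082 and 668 CPM in scMC38 1 to 4, against 1139 to 1558 CPM in controls, and Col1a1 alone, a collagen that bone also makes, gave 2215 CPM of the sum in scMC38 3. Of these 10 fibroblast markers, 4 were below all controls in every scMC38 mouse, beside 6.45% of all tested genes. By edgeR 2 of them were called, beside 1.20% of all tested genes. In every scMC38 mouse 5 of the 10 neutrophil and 2 of the 10 macrophage markers were above all controls, beside 6.82%. Of the 10 endothelial markers 1 was below all controls, and no neutrophil, macrophage or endothelial marker was called. The 8 adipocyte markers summed to 812 to 1421 CPM in scMC38 and 623 to 1691 CPM in controls, and the 7 Schwann cell markers to 46.3 to 62.1 CPM and 67.1 to 136 CPM in the same order. The 8 smooth muscle markers summed to 3597 to 4360 CPM in scMC38 and 3389 to 3883 CPM in controls, mostly Des, which muscle fibres also express. Their mean log2 level relative to controls was -0.71 to -0.26 in scMC38, against -0.39 to 0.14 in controls. Only 1 of the 8, Myh11, was below all controls in every scMC38 mouse, beside 6.45% of all tested genes, and the rest overlapped. The nearest Myh11 values were 29.8 CPM in scMC38 4 and 29.9 CPM in Control 3 (log2 fold change -0.75, edgeR adjusted p = 0.0837). The part of these cell types in the enzyme levels was not tested.

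The rest of the sphingolipid pathway was read from 61 further genes, of which 51 were abundant enough to test. By edgeR 0 of the 51 were called and 12 had an unadjusted p under 0.05, beside 21.0% of all tested genes. DESeq2 called 6 of the 51, beside 10.1% of all genes, and limma-voom 0. The 6 were Plpp1 (DESeq2 adjusted p = 0.00056), Spns2 (0.00091), Ugcg (0.0049), B4galnt1 (0.0144), Hexa (0.0231) and Ugt8a (0.0358). The median log2 fold change was 0.077 over these 51, 0.0099 over the 10 enzymes and 0.00087 over all tested genes. Groups did not overlap for 5 of the 51 with scMC38 above and 3 with scMC38 below, beside 6.82% and 6.45% of all tested genes.

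Genes that handle sphingosine 1-phosphate and related lipids came closest to the edgeR threshold. Plpp1, a lipid phosphatase that removes the phosphate from extracellular lysophospholipids, was at 28.2, 25.7, 27.3 and 29.1 CPM in scMC38 1 to 4, against 34.1, 36.8, 33.2 and 37.9 CPM in Control 1 to 4. All scMC38 mice were below all controls, with little spread in either group (log2 fold change -0.36, SE 0.07, edgeR adjusted p = 0.0569). Spns2, the transporter that exports sphingosine 1-phosphate, was at 118, 145, 122 and 142 CPM in scMC38 1 to 4, against 70.2, 66.0, 57.5 and 105 CPM in Control 1 to 4. All scMC38 mice were above all controls, and Control 4 was the nearest to them (log2 fold change 0.82, SE 0.18, edgeR adjusted p = 0.0737). Without Control 4 it was called (1.03, edgeR adjusted p = 0.0202).

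Ugcg, which adds glucose to ceramide and so starts glycosphingolipid synthesis, was at 13.7, 14.04, 20.5 and 11.5 CPM in scMC38 1 to 4, against 9.07, 10.5, 7.44 and 8.08 CPM in Control 1 to 4. These groups did not overlap (log2 fold change 0.77, SE 0.19, edgeR adjusted p = 0.0847), and leaving out scMC38 1 and 3 gave 0.56. Ugt8a, which adds galactose to ceramide for myelin lipids, averaged 0.228 ± 0.034 CPM in scMC38 and 0.707 ± 0.389 CPM in controls (SD, n = 4 each). Ugt8a had a log2 fold change of -1.62 (SE 0.47, edgeR adjusted p = 0.115), and its groups overlapped, with 0.271 CPM in scMC38 3 against 0.219 CPM in Control 4. Of the 7 Schwann cell markers, 2 were below all controls in every scMC38 mouse, beside 6.45% of all tested genes. The mean log2 level of this list was -1.25 to -0.47 in scMC38 and -0.64 to 0.52 in controls, so the groups overlapped. The part of Schwann cells in the Ugt8a level was not tested. Fa2h, the hydroxylase that makes 2-hydroxylated sphingolipids, averaged 0.291 ± 0.141 CPM in scMC38 and 0.669 ± 0.130 CPM in controls (log2 fold change -1.19, edgeR adjusted p = 0.133). Every scMC38 mouse lay below every control for Fa2h, at 0.169 to 0.470 CPM against 0.553 to 0.849 CPM.

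The remaining named genes, among them regulators and lipid carriers, were not called by edgeR either. Ormdl1, a brake on serine palmitoyltransferase, had a log2 fold change of -0.28 (SE 0.10, edgeR adjusted p = 0.166). Cert1, which carries ceramide from the endoplasmic reticulum to the Golgi, stood at 0.33 (SE 0.11, edgeR adjusted p = 0.145) and lay above all controls in every scMC38 mouse but scMC38 3. Sgms2, a sphingomyelin synthase, stood at 1.63 (SE 0.88, edgeR adjusted p = 0.322), with 22.3 CPM in scMC38 3 and 1.00 to 5.09 CPM in the other scMC38 libraries, against 2.07 to 2.91 CPM in controls. Leaving out scMC38 1 and 3 turned Sgms2 to -1.09 (SE 0.23, edgeR adjusted p = 0.0856). Cptp, the carrier of ceramide 1-phosphate, stood at -0.19 (SE 0.10, edgeR adjusted p = 0.316) and Cerk, ceramide kinase, at 0.33 (SE 0.28, edgeR adjusted p = 0.528), or -0.069 for Cptp and -0.11 for Cerk with scMC38 1 and 3 left out.

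The genes whose levels most resembled that of Acer2 were Nufip1, Cherp and Adm. Their Pearson r with Acer2 was 0.972, 0.968 and 0.967, over 8 libraries that fall into the 2 groups and among 11026 candidates. Adm, the peptide hormone adrenomedullin, averaged 6.09 ± 1.40 CPM in scMC38 and 3.24 ± 0.406 CPM in controls (SD, n = 4 each). Its log2 fold change of 0.91 was not called (edgeR adjusted p = 0.0680), nor were those of Nufip1 (0.22, edgeR adjusted p = 0.175) and Cherp (0.28, edgeR adjusted p = 0.0854).

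**Figure D4:**
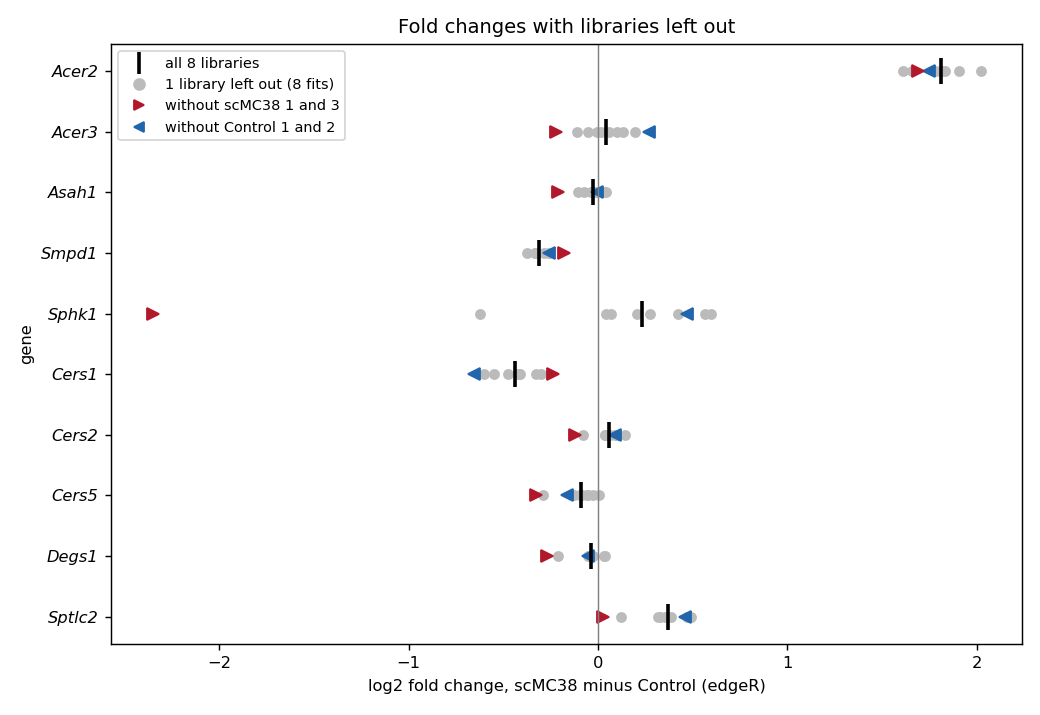
Log2 fold change, scMC38 minus Control, of each enzyme (horizontal axis) in the edgeR fit of all 8 libraries (bar), in the 8 fits that leave out 1 library (grey) and without scMC38 1 and 3 or Control 1 and 2 (triangles). Acer2 stays between 1.61 and 2.02, while Sphk1 is at 0.23 with all libraries and at -2.35 without scMC38 1 and 3.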

How the data were processed

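Quadriceps RNA was sequenced from 8 mice (RNeasy Mini extraction and a Universal Plus mRNA-seq library, per the labels' protocols). The authors deposited 1 table of estimated counts for genes, with no scaling to depth or length. Salmon 1.10.3, fastp 1.0.1, MultiQC 1.30, FastQC 0.12.1 and R 4.4.3, with build GRCm39, are listed without their roles in the submitters' processing notes. Annotation release and strand setting: not given in the sources used here. How overlapping or near-identical genes divided their reads is therefore uncertain.

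Columns were matched to mice by library name. Of 35667 rows, 144 without a symbol were left out (at most 0.00403% of any library), rows of 26 repeated symbols were summed, and values were rounded. Tests used edgeR 4.0.16 in R 4.3.3: filterByExpr (at least 10 counts, 15 in total), TMM and a robust quasi-likelihood test with no covariates, with p-values adjusted by Benjamini-Hochberg over 14112 genes. Standard errors are those implied by the F statistic, and p-values set the difference between the groups against the spread between mice. The common biological coefficient of variation was 27.3%. Relative log2 levels carry a prior count of 2. The script was tested on simulated data.

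Alternatives were DESeq2 1.42.0, limma-voom (limma 3.58.1), other scalings and filters, a replicate block and fits with libraries left out. Libraries of a group differed well beyond counting noise (chi-square per degree of freedom of at least 63.2), so each counted as 1 replicate. The enzymes, the gene lists and the libraries to leave out were chosen with earlier results of these data known. All 10 enzymes are named. Of the other sphingolipid genes, called ones and the 2 with the smallest p in each of 5 role lists are named, and, above a mean log2 CPM of 1, the 3 genes most correlated with a called enzyme.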

Additional observations from a re-analysis of the deposited data

Results flagged for a closer look

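Each enzyme was looked at for a single mouse far from the other three of its group, which came to 20 groups of 4 libraries, and chance alone would mark about 1 in 20. Both of the 2 marked values were in Control 2. Cers2 was at 22.4 CPM there, against 19.7 to 19.9 CPM in the other controls. Smpd1 was at 88.3 CPM there, against 76.4 to 77.6 CPM in the other controls. Control 2 also had the highest share of mitochondrially encoded counts, 29.7%, and the part of this in the 2 values was not tested. Without Control 2 the log2 fold change of Smpd1 was -0.26 (edgeR adjusted p = 0.241).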

How the results depend on the processing

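The 170 genes called in all became 267 with total counts, 1426 with DESeq2, 64 without scMC38 1 and 3 together, 0 without Control 1 and 2 together (edgeR, 1605 at an unadjusted p under 0.05) and 2 to 99 with 1 library left out. The single enzyme called became 2 with DESeq2 (Acer2 and Smpd1), 0 with limma-voom (Acer2 adjusted p = 0.0743), 0 without scMC38 1 and 3 together, 0 without Control 1 and 2 together, and 0 to 1 with 1 library left out. The 0 other sphingolipid genes called became 2 with total counts (Sphk2 and Spns2), 6 with DESeq2 and 0 to 1 with 1 library left out. With the replicate number as a block, 1 gene and 0 enzymes were called (Acer2 1.71, adjusted p = 0.169). The numbers do not pair the mice: same-numbered mice had deviations correlated from -0.28 to -0.01, and 0 of 8 libraries correlated best with their own number.

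Acer2, Cers1, Sptlc2 and Smpd1 kept their direction under every alternative run. With total counts the all-gene median moved by 0.11 (log2), and this scaling turned the sign of Asah1 (0.096), Cers5 (0.036) and Degs1 (0.087). Sphk1 was negative with limma-voom (-0.46), with the block (-0.43) and without scMC38 1 and 3 (-2.35), as were Acer3 (-0.22) and Cers2 (-0.12) in the last of these. With 1 library left out the sign also turned for Acer3 (-0.11 to 0.19), Asah1 (-0.10 to 0.044), Cers2 (-0.080 to 0.14), Cers5 (-0.29 to 0.0060), Degs1 (-0.21 to 0.039) and Sphk1 (-0.62 to 0.60). None of these was called in any fit, and the cause was not tested. The filter of at least 1 CPM removed Sphk1.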

Other observations

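Ratios of 2 enzymes within a library do not depend on the scaling between libraries. The log2 ratio of Acer2 to Acer3 was 0.61, 0.13, 1.12 and 1.98 in scMC38 1 to 4, against -1.07, -0.92, -0.57 and -0.34 in Control 1 to 4, and these groups did not overlap. Acer2 alone did not overlap between the groups either, so this is not a separate observation. The log2 ratio of Cers1 to Cers2 averaged 0.36 ± 0.52 in scMC38 and 0.84 ± 0.38 in controls (SD, n = 4 each). That of Cers5 to Cers2 averaged -1.92 ± 0.17 in scMC38 and -1.76 ± 0.13 in controls. For Smpd1 to Asah1 it was 1.70 ± 0.37 in scMC38 and 1.98 ± 0.076 in controls. These ratios were chosen after the values were seen and were not tested.

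Hexa, Sphk2 and B4galnt1, chosen after their values were seen, were higher in every scMC38 mouse than in every control. None was called by edgeR in the TMM-scaled fit of all 8 libraries. With total-count scaling edgeR called Sphk2 (adjusted p = 0.0470), and DESeq2 called Hexa (adjusted p = 0.0231). Hexa, a lysosomal hexosaminidase subunit that degrades gangliosides, averaged 65.0 ± 14.3 CPM in scMC38 and 46.4 ± 2.16 CPM in controls (SD, n = 4 each, log2 fold change 0.49, edgeR adjusted p = 0.115), and its log2 fold change was 0.30 without scMC38 1 and 3. Sphk2, the second sphingosine kinase, averaged 26.3 ± 4.20 CPM in scMC38 and 21.2 ± 1.16 CPM in controls (SD, n = 4 each, log2 fold change 0.31, edgeR adjusted p = 0.170), and its log2 fold change was 0.51 without scMC38 1 and 3. B4galnt1, which makes complex gangliosides, was at 2.68, 1.29, 14.8 and 1.73 CPM in scMC38 1 to 4, against 0.904 to 1.22 CPM in controls. Its log2 fold change was 2.29 (edgeR adjusted p = 0.145, DESeq2 adjusted p = 0.0144), and 0.54 without scMC38 1 and 3 (edgeR adjusted p = 0.303). In the other direction, S1pr2, a receptor gene for sphingosine 1-phosphate also picked after its values were seen, was lower in every scMC38 mouse. S1pr2 was at 2.34, 2.10, 2.73 and 0.946 CPM in scMC38 1 to 4, against 2.95 to 3.48 CPM in controls. The S1pr2 log2 fold change was -0.64 (edgeR adjusted p = 0.253), and -1.04 without scMC38 1 and 3 (edgeR adjusted p = 0.159).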
